A study of Homo sapiens with 14 samples.

Results

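Sublibrary H6 of a genome-wide CRISPR interference screen held guides against 2418 human genes, for the most part genes of membrane proteins, and its bright and dim sorted cells are compared here. The members are all 12991 guides listed in the H6 top quartile library or the H6 bottom quartile library, of 91463 guides in the 6 sublibraries compared, and 245 of them are non-targeting controls. The screen asked which genes alter the loss of the delta opioid receptor (DOR) after an agonist. The cells were HEK293 FLP-In, derived from embryonic human kidney and fitted with a site for inserting transgenes. They carried a DOR-APEX2 fusion, a receptor with a peroxidase on it, together with dCas9-KRAB-BFP from a lentivirus. Sorted clonal populations of this line were used, and both H6 groups share these transgenes and all treatments. The hCRISPRi-v2-top5 library, with 5 guides per gene start, entered the cells in 7 separate virus pools at a multiplicity of about 0.2. Puromycin at 0.75 µg/ml acted for 3 days from 2 days after transduction, and the cells grew for 8 days in all. They then received 10 µM DADLE, an opioid peptide agonist, for 90 minutes. Amplex UltraRed at 100 µM and hydrogen peroxide at 50 µM reacted for 1 minute before cells in the top (bright) and bottom (dim) quartile of fluorescence were collected. All cells received DADLE, so there is no untreated group.

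In CRISPR interference a catalytically dead Cas9 fused to the KRAB repressor is led by a guide to the start of a gene and lowers its transcription. APEX2 oxidises Amplex UltraRed to a fluorescent product, so that the brightness of a cell reports how much of the tagged receptor meets the substrate. After an agonist acts, DOR is taken up by endocytosis and much of it is carried through endosomes to lysosomes for breakdown, while newly made receptor passes through the ER and Golgi, where it is folded and glycosylated. Many H6 genes belong to families that act at these membranes, such as receptors, carriers, channels, glycosyltransferases and lysosomal proteins.

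The values are counts of sequenced guides, and a guide's log2 ratio is its share of the top library over its share of the bottom library, centred on the median of the H6 non-targeting guides. A positive value means that the guide was more frequent in bright cells. The guides of one gene at one start form a target, and its value is the mean over guides ± SD. Guides of a target share a gene and often overlap on the DNA, so that they are not replicates of the sort. Each group held 1 library and there is no replicate check. The two-sided permutation test used below sets a target's guides against the non-targeting guides of these 2 libraries, so it compares these libraries and not the conditions. An adjusted p of 0.05 over the 18116 targets of all 6 sublibraries was the threshold, and targets that met it are said to have passed. The knockdown that each guide gave was not measured in these tables.

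Of 2590 H6 targets, 21 passed with guides more frequent in bright cells, or 0.811%, and 11 with guides more frequent in dim cells, or 0.425%. Together these 32 were 1.24% of the H6 targets, against 3.86% of the targets of all 6 sublibraries. SLC12A9 and TMEM106B, both of which encode proteins of the lysosomal membrane, had the smallest p on the bright side. B3GNT2, a Golgi glycosyltransferase, and PNISR, a nuclear protein related to splicing factors, had the smallest on the dim side. Of the 2417 genes measured, 1523 stood on 37 lists of gene families, nearly all of membrane proteins, and 10 bright and 4 dim genes that passed were among them. The median of all H6 target means was 0.00 with an SD of 0.176 between targets. An unadjusted permutation p under 0.05 was found for 238 targets, or 9.19%.

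Most of the 32 calls were narrow. Adjusted over H6 alone 5 of them passed, ZMYM5, SLC12A9, TMEM106B, B3GNT2 and PNISR. Without each target's farthest guide 3 passed, SLC12A9, TMEM106B and B3GNT2. The draws for that setting were not trimmed in the same way and could still include the guide left out. Part of the loss can come from that mismatch. With no filter on guide counts ZMYM5 and SDK2 passed. Against olfactory receptor guides in place of the non-targeting ones ZMYM5, SDK2 and SLC12A9 did. The olfactory receptor setting was also adjusted over H6 alone, so it changed the reference and the adjustment together. The filter admitted a guide with 50 counts in either library, and 98 guides entered with fewer than 50 in the other. Such a guide, admitted through the library in which it was high, belonged to 8 targets that passed, ZMYM5, SDK2, TMEM86A, LRIG1, MEGF11, NIPA1, C18orf8 and SYNDIG1. When 50 counts were required in each library, SDK2 had too few guides left and the other 7 no longer passed, while the remaining 24 of the 32 did. That setting was added after the data were seen. None of the 32 passed under all 15 settings, and SLC12A9 passed under the most.

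Promoter sequences are shown for 4 genes with targets that passed, and for the olfactory receptor gene OR51F1 as a gene of another promoter type. The 4 are those with the smallest p on each side among genes with 1 start in H6 and all guides on 1 side, TMEM106B and TGFBR3 for bright cells and B3GNT2 and MDM1 for dim cells. Genes with several starts in H6, SLC12A9 and PNISR among them, were left out, since the RefSeq table gives 1 start per gene and does not say which guides belong to it. Each sequence is given for the gene's strand as the 250 bases before the RefSeq start in GRCh38.p14, with each CG dinucleotide in capitals. TMEM106B lies at chr7:12211044-12211293 and B3GNT2 at chr2:62195865-62196114, both on the plus strand. On the minus strand, TGFBR3 lies at chr1:91886152-91886401, MDM1 at chr12:68332363-68332612 and OR51F1 at chr11:4769939-4770188.
TMEM106B: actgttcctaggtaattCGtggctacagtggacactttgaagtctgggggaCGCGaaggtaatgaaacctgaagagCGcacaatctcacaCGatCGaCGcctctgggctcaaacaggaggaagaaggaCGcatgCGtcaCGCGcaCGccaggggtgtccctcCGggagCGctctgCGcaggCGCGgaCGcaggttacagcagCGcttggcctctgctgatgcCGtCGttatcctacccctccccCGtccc
TGFBR3: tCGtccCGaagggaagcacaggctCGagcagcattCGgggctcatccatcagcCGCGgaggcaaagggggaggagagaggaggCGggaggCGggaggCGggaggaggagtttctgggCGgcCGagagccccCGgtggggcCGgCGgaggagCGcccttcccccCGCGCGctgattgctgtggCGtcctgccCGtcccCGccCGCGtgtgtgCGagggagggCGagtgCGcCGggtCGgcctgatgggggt
B3GNT2: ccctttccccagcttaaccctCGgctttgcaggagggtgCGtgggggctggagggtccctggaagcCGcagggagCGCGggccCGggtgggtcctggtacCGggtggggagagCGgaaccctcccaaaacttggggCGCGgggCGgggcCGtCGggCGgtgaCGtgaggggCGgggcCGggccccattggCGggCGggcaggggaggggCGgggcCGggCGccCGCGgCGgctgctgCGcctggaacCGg
MDM1: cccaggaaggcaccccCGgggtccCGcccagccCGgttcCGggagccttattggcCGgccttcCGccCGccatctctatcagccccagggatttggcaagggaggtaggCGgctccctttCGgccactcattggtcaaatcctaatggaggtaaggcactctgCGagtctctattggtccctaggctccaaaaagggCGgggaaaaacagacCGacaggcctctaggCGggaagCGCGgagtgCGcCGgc
OR51F1: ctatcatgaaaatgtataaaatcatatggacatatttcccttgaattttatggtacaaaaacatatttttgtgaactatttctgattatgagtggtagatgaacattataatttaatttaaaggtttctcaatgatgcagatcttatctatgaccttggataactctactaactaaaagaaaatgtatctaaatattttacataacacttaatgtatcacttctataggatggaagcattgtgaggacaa

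CG was searched on 1 strand, since it reads the same on both. TMEM106B, TGFBR3, B3GNT2 and MDM1 held 22, 28, 27 and 17 CG, and OR51F1 held 0. A promoter sequence matched 1747 of the 2249 measured H6 genes with 1 start, among them 16 of the bright and 7 of the dim genes that passed. Of these 1747 promoters 841, or 48.1%, had 10 or more CG, against 51.9% of the 27305 promoters of the whole RefSeq table. Among genes that passed, the count was 15 of 16 on the bright side and 6 of 7 on the dim side. The exceptions were SLC38A1 with 5 CG and TMEM213 with 2. Of 271 olfactory receptor promoters 3 reached 10, and their median was 1. Targets of genes with 10 or more CG had means with an SD of 0.206 between them, and 21 of the 841 passed. For the 906 genes with fewer CG the SD was 0.146 and 2 passed. The genome build of the positions in the guide names is stated in none of the sources used here, so that guides were not placed on these sequences.

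The H6 bottom library held 18054418 counts and the top library 23689738, with medians of 1193 and 1580 per listed guide. Of the 12991 guides 12884 had at least 50 counts in either library and entered the test, 241 of them non-targeting. Guides listed in the top library alone numbered 15, and 13 were listed in the bottom library alone. Targets with 5, 4 and 3 guides numbered 2297, 277 and 16, and 1 further target had fewer and was not tested. The non-targeting guides ranged from -0.83 to 1.22 with an SD of 0.272, against 0.0683 from counting alone. In the other 5 sublibraries that SD lay between 0.215 and 0.333, and between 0.583% and 7.43% of targets passed.

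How far a guide lay from 0 went with how many counts it had. Guides with under 500 counts over both libraries had an SD of 1.03, and 114 of these 638, or 17.9%, lay beyond 1 on the log2 scale in either direction. The 3940 guides with over 4000 counts had an SD of 0.184, and 7 of them, or 0.178%, lay that far out. Counting alone would give 0.242 and 0.0393. Of the non-targeting guides in the test, 10 had under 500 counts. A guide with under 500 counts belonged to 14 of the 32 targets that passed, or 43.8%, and to 21.0% of the others. At least 1 guide beyond 1 belonged to 19 of the 32, or 59.4%, and to 6.72% of the others. These shares describe the same values that made the targets pass and are not a separate check.

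The cation-chloride cotransporter family member SLC12A9, on chromosome 7, had the clearest difference in H6. Its 5 guides at the first start (P1) had 576, 1148, 520, 1393 and 812 counts in the bottom library and 1097, 2553, 1433, 4493 and 2899 in the top library. Every guide had more counts in the top library, by more than the difference in library totals. Their log2 ratios were 0.54, 0.76, 1.07, 1.30 and 1.44. The mean of 1.02 ± 0.37 (SD, n = 5 guides) was a 2.03-fold higher share in bright cells, with an adjusted p of 6.71e-04 by the permutation test, the smallest that the draws allow. These guides lie within 139 bases of each other. The 5 guides of the second start (P2), by contrast, had ratios from -0.22 to 0.29 and a mean of -0.03 ± 0.20. Counted between their median guides, P1 and P2 lie 25726 bases apart. SLC12A9 passed under 14 of 15 other settings and, with edgeR's quasi-likelihood test, had an adjusted p of 0.00430.

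TMEM106B encodes a transmembrane protein of late endosomes and lysosomes that affects lysosome size and transport. Its guides had 546, 656, 1367, 893 and 206 counts in the bottom library and 1003, 1308, 2921, 1958 and 480 in the top library. All 5 lay on the bright side and close together, from 0.48 to 0.83. Their mean of 0.67 ± 0.13 (SD, n = 5 guides) made the share 1.59-fold higher in bright cells, and the permutation test gave the same smallest adjusted p of 6.71e-04. edgeR gave an adjusted p of 0.0138, and the target passed under 13 of 15 other settings.

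C18orf8 and MFSD12 are further genes of late endosomes and lysosomes that passed on the bright side. C18orf8, now named RMC1, encodes a subunit of the Mon1-Ccz1 complex that activates RAB7. Its guides had 1635, 1396, 238, 1774 and 20 counts in the bottom library and 2425, 2296, 419, 3155 and 52 in the top library. The 4 deeper guides lay between 0.18 and 0.44 and the shallow one, which entered through the top library alone, at 0.94. The mean was 0.46 ± 0.29, with an adjusted p of 0.0275 by the permutation test. Without that guide the mean was 0.34, and with at least 100 counts over both libraries the target no longer passed, at 0.231. MFSD12 encodes a carrier that brings cysteine into lysosomes and melanosomes. Its guides had 965, 1144, 2969, 120 and 757 counts in the bottom and 1235, 1980, 5314, 280 and 1777 in the top library. One guide lay at -0.04 and the others between 0.40 and 0.84, which gave 0.50 ± 0.36 and an adjusted p of 0.0145 by the same test. RMC1 passed under 5 and MFSD12 under 7 of 15 other settings.

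These 4 genes were on a list of 28 lysosome, late endosome and proton pump genes of H6 that was drawn up after the calls were known. On that list 4 targets passed on the bright side and 0 on the dim side, and the median was 0.14, against 0.00 over all measured genes. Because the list was chosen with the results in view, its count and median support nothing.

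The Golgi enzyme B3GNT2, on chromosome 2, builds poly-N-acetyllactosamine chains on glycoproteins, and its guides were more frequent in dim cells. They had 1138, 1100, 3502, 2151 and 2612 counts in the bottom library and 860, 934, 3112, 1979 and 2524 in the top library. Although the top library was the deeper one, every guide had fewer counts there. The ratios ran from -0.79 to -0.44, the mean was -0.59 ± 0.13 (SD, n = 5 guides) and the share was 1.50-fold higher in dim cells. The permutation test gave an adjusted p of 0.00245 and edgeR 0.00604. B3GNT2 was also the 1 dim target that passed when each target's farthest guide was left out, at -0.54 with an adjusted p of 0.0438 by the permutation test. It passed under 12 of 15 other settings. The exceptions were no filter on guide counts, olfactory receptor guides as the reference and the 3 farthest guides.

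ST3GAL2, a sialyltransferase of the Golgi on chromosome 16, passed on the same side at its first start. The guides had 1359, 1186, 1768, 1248 and 1415 counts in the bottom and 1117, 984, 1513, 1258 and 1741 in the top library. Of these, 3 lay between -0.67 and -0.62, the others at -0.38 and -0.09. The mean was -0.48 ± 0.25 with an adjusted p of 0.0128 by the permutation test. Its second start had -0.08 ± 0.15 and did not pass. Of 51 measured Golgi glycosyltransferases and sulfotransferases 0 passed on the bright side and 2 on the dim side, the 2 just described. The median of that list was -0.02 and its highest mean 0.21. Over all H6 targets 0.811% passed on the bright and 0.425% on the dim side, and whether the list differs was not tested.

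SELENOK, listed as SELK, is a selenoprotein of the ER membrane that takes part in protein palmitoylation and in ER-associated degradation. The guides had 677, 1929, 2197, 2333 and 1681 counts in the bottom and 587, 1685, 1962, 2622 and 1898 in the top library. All lay on the dim side, 3 between -0.60 and -0.55 and 2 at -0.22. That gave -0.44 ± 0.20 and an adjusted p of 0.0324 by the permutation test, with 0.0562 by edgeR. TANGO6, named for a role in transport and Golgi organisation, had -0.43 ± 0.48 with 4 of 5 guides on the dim side and a permutation adjusted p of 0.0480. Its guides ranged from -1.02 with 437 and 282 counts in the bottom and top libraries to 0.29 with 235 and 377. Both belong to a list of 21 ER insertion, folding and Golgi transport genes that was drawn up with these results known, in which 0 passed on the bright side and 2 on the dim side. The median there was 0.00, and 0.425% of all H6 targets passed on the dim side.

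Solute carriers were the largest group of carriers in H6. Of 168 measured solute carrier genes on 6 lists, 2 passed on the bright side, SLC12A9 and SLC38A1, and 1 on the dim side, SLC35G1. Their median was 0.00, and over all H6 targets 0.811% passed on the bright and 0.425% on the dim side. SLC38A1 is a sodium-coupled carrier of neutral amino acids. Its guides had 1090, 601, 2178, 1633 and 565 counts in the bottom library and 1506, 925, 3383, 2615 and 2131 in the top library. One guide stood at 1.52 and the other 4 between 0.07 and 0.29. Its mean was 0.47 ± 0.59, with a permutation adjusted p of 0.0445, and without the farthest guide it was 0.21 and did not pass.

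SLC38A2, the closest relative of SLC38A1, had the reverse pattern of a smaller mean and even guides. There were 2515, 2272, 1690, 641 and 1737 counts in the bottom and 4013, 3710, 3015, 1169 and 3291 in the top library. All 5 ratios lay between 0.28 and 0.53. The mean of 0.41 ± 0.11 (SD, n = 5 guides) just missed the threshold, with an adjusted p of 0.0550 by the permutation test, while edgeR gave 0.0277. It was the 1 H6 target that passed by edgeR without passing the permutation test. Of 24 measured amino acid carriers 1 passed on the bright and 0 on the dim side, and the median was -0.03. The shares over all H6 targets were 0.811% and 0.425%.

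SLC35G1, of the family of nucleotide sugar carriers and their relatives, had -0.58 ± 0.79. Its guides held 165, 835, 508, 853 and 466 counts in the bottom library and 60, 681, 444, 1100 and 709 in the top library. The guide with the fewest counts lay at -1.84, 2 lay at -0.68 and -0.59, and the last 2 at -0.02 and 0.21. The permutation adjusted p was 0.0206, and the mean without the farthest guide was -0.27. Of the 14 genes on this list no other passed, where 1.24% of all H6 targets did. The lists of sugar, monocarboxylate and organic ion carriers (51 genes), of metal ion carriers (15), of other carriers (43) and of ABC transporters (8) had 0 that passed. SLC29A4, a nucleoside and monoamine carrier among these, had 1.23 ± 2.36 and an adjusted p of 0.0530 by the permutation test. It rested on 1 guide with 0 counts in the bottom and 56 in the top library, whose ratio depends on the pseudocount. With 3 counts as what that 0 allows the mean would be 0.91, and the mean of the other guides was 0.17.

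Among pumps and channels, ATP10A, a flippase that moves phosphatidylcholine across the plasma membrane, passed on the bright side. The guides had 1111, 1147, 863, 303 and 139 counts in the bottom and 1721, 1793, 1407, 582 and 312 in the top library. All 5 lay above 0, from 0.24 to 0.77, and the shallowest were the farthest out. The mean was 0.42 ± 0.23 with a permutation adjusted p of 0.0445. It was the 1 of 20 measured P-type ATPases and flippases that passed, and the list's median was -0.04. The share over all H6 targets was 1.24%.

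KCNB2 on chromosome 8 encodes a voltage-gated potassium channel. Its guides had 714, 184, 1349, 603 and 319 counts in the bottom and 1042, 326, 2571, 1179 and 746 in the top library. All lay on the bright side, between 0.15 and 0.83. The mean was 0.51 ± 0.25, with an adjusted p of 0.0121 by the permutation test and 0.139 by edgeR. Over 141 genes on the 5 lists of channels, pores and gap junction proteins it was the 1 target that passed. The share over all H6 targets was 1.24%. The lists of sodium, calcium and TRP channels, of chloride channels, of ligand-gated channels and of aquaporins, connexins and pannexins had 0.

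NIPA1 encodes a magnesium carrier of endosomes and the cell surface, and was in none of the lists. It had 0.51 ± 0.68 and a permutation adjusted p of 0.0388. The guide at 1.71 had 24 counts in the bottom and 106 in the top library, and the others lay between 0.02 and 0.40. Without the farthest guide the mean was 0.22.

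Receptors coupled to G proteins, the family of DOR itself, made up the largest block of H6 and gave 0 targets that passed. The share over all H6 targets was 1.24%. Olfactory receptors, which are made mainly in the sensory neurons of the nose, accounted for 343 measured genes. Their median was -0.01 and their SD 0.131, and 20 of them, or 5.83%, had an unadjusted permutation p under 0.05. That share was 9.35% over all 2417 measured genes. By edgeR 4 H6 targets passed, or 0.174% of 2297, which were SLC12A9, TMEM106B, B3GNT2 and SLC38A2 and no receptor of this family. The 1716 olfactory receptor guides had a median of -0.01 and an SD of 0.289, near that of the non-targeting guides. The lowest and highest of them, at -2.98 and 2.48, lay far beyond the non-targeting range.

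OR51F1, whose promoter is shown above, had the lowest mean of the olfactory receptors. Its guides held 107, 393, 1059, 222 and 509 counts in the bottom and 17, 512, 1381, 304 and 736 in the top library. One guide lay at -2.98 and the other 4 between -0.01 and 0.14. The mean of -0.56 ± 1.35 had an adjusted p of 0.190 by the permutation test and did not pass.

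The other receptor lists coupled to G proteins held 220 genes and also had 0 that passed, with a median of -0.01. They took in 24 taste receptors, 14 trace amine and MAS-related receptors, 39 peptide hormone and neuropeptide receptors and 26 chemokine and chemoattractant receptors. They further held 16 lipid and nucleotide receptors, 98 orphan and adhesion receptors and 4 Frizzled receptors and Wnt co-receptors. Unadjusted permutation p under 0.05 was found for 17 of the 220, or 7.73%, against 9.35% over all measured genes. The bitter taste receptor TAS2R39 came nearest, at -0.41 ± 0.34 with all 5 guides on the dim side and an adjusted p of 0.0511 by the permutation test. The MAS-related receptor MRGPRX4 had 0.42 ± 0.31, also with all 5 guides on 1 side, and 0.0565. HCAR2, a receptor for hydroxybutyrate and niacin, had the highest mean of these lists, 0.94 ± 1.96, with 3 of 5 guides on the bright side and 0.0982 by that test. It rested on 1 guide at 4.39 with 1 and 54 counts in the bottom and top libraries, which entered through the top library alone. Without that guide the mean was 0.08. No biogenic amine receptor of the list written for them was found in H6. Of 6 accessory proteins of such receptors 0 passed.

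Further cell surface proteins that passed are grouped here after their values were seen, and not as a list. TGFBR3, the TGF-beta co-receptor betaglycan, had 1266, 641, 1031, 199 and 62 counts in the bottom and 1851, 938, 2085, 406 and 263 in the top library. All lay above 0, from 0.16 to 1.68, and the guide with the fewest counts was the farthest. The mean was 0.65 ± 0.62 with a permutation adjusted p of 0.00499. Without the farthest guide the mean was 0.39 and TGFBR3 did not pass, nor did it by edgeR or adjusted over H6 alone. It passed under 10 of 15 other settings. LRIG1, a negative regulator of ErbB receptors, had 0.61 ± 1.05 and lay at the edge of the threshold, with a permutation adjusted p of 0.0498. One of its guides, with 15 and 108 counts in the bottom and top libraries, stood at 2.38, and without it the mean was 0.17. It passed under 4 of 15 other settings, the fewest of all targets that passed.

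LRRN1, a neuronal protein with leucine-rich repeats, had 1110, 1210, 329, 503 and 91 counts in the bottom and 1689, 1937, 609, 1045 and 277 in the top library. All 5 guides lay above 0, from 0.21 to 1.20. The mean was 0.57 ± 0.39 with a permutation adjusted p of 0.00852, and 10 of 15 other settings called it too. ROBO4, the Roundabout receptor of endothelial cells, had 0.48 ± 0.54 and a permutation adjusted p of 0.0306. Its guides reached 1.26, and 3 of them lay at 0.24 or below, 1 of these just under 0. LRRN1 and ROBO4 were the 2 of 44 neuronal surface and guidance genes that passed, and the list's median was 0.04. On the bright side 0.811% of all H6 targets passed, and whether the list differs was not tested.

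SDK2 and MEGF11 are cell surface proteins that take part in the ordering of retinal neurons. SDK2 had 1.47 ± 2.21 over 4 guides, of which 2 lay on the bright side, at 1.67 with 33 and 141 counts and at 4.53 with 3 and 120 counts in the bottom and top libraries. The guides with 434 and 468 and with 2981 and 3841 counts lay at -0.28 and -0.03, so that the mean rested on the shallow guides. Another guide, with 14 and 41 counts, had too few to enter. The adjusted p of 0.0115 by the permutation test thus came from guides that entered through the top library alone. MEGF11 had 0.54 ± 0.61 and 0.0261 by that test. The guide at 1.61 had 34 and 139 counts in the bottom and top libraries, and the other 4 lay between 0.11 and 0.41.

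Other families of the cell surface had 0 targets that passed in either direction, where 1.24% of all H6 targets passed. They were 57 cadherins and protocadherins, 49 integrins, tetraspanins and adhesion molecules, 24 claudins and tight junction proteins, 31 cytokine, TNF and Toll-like receptors and 127 immune cell surface proteins. Their medians lay between -0.03 and 0.04. These lists are small beside that share, so that a count of 0 is not a result about a family. CLDN1, a claudin of tight junctions, had the lowest mean of any measured gene at -0.61 ± 1.00 and an adjusted p of 0.0527 by the permutation test. It had a guide at -2.37 with 125 and 31 counts in the bottom and top libraries, and the others lay between -0.34 and 0.03. The palmitoyltransferases and membrane O-acyltransferases (20 genes), the surface and intramembrane proteases (8), the LDL receptor family and cargo receptors (4), the genes of GPI anchor synthesis (2) and the 1 membrane-bound ubiquitin ligase also had 0. So did 34 genes of XK, TMC, CMTM, MAL and other small membrane families and 15 genes for heme, oxidases and thiol redox, the last on a list drawn up with the results known.

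Of 171 measured TMEM proteins, which share a naming rule and not a function, 4 passed on the bright side and 1 on the dim side, with a median of 0.03. Over all H6 targets 0.811% passed on the bright and 0.425% on the dim side, and whether the list differs was not tested. Beside TMEM106B the TMEM genes on the bright side were TMEM86A, TMEM131 and TMEM39B. TMEM131, which takes part in the export of collagen from the ER, had 1084, 2311, 1096 and 381 counts in the bottom and 1397, 4152, 2382 and 1246 in the top library. The ratios ran from -0.03 to 1.32, and the mean was 0.62 ± 0.56 (SD, n = 4 guides) with a permutation adjusted p of 0.0133. TMEM39B had 0.51 ± 0.58 with 4 of 5 guides on the bright side and 0.0178 by that test. TMEM86A, an enzyme that cleaves lysoplasmalogens, had 0.63 ± 0.71 and 0.00643. Of its guides 3 lay between 0.02 and 0.19 and 2 at 1.30 and 1.51, the last with 25 and 96 counts in the bottom and top libraries.

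TMEM213 was the TMEM gene on the dim side, at -0.44 ± 0.50 and an adjusted p of 0.0432 by the permutation test. Each of its 5 guides was below 0, but 3 with 1805 or more counts in the bottom library lay between -0.17 and -0.02. The guides at -1.11 and -0.83 had 334 and 576 counts there, and the one at -0.83 is also listed for another target. With shared guides removed TMEM213 no longer passed. ATP6V0A4, a subunit of the proton pump whose start lies 202 bases away, had -0.14 ± 0.32 at P1 and 0.11 ± 0.13 at P2 in H2, and neither passed. TMEM194B and TMEM138 had higher means than any TMEM gene that passed, 1.53 ± 3.17 and 1.36 ± 2.93, and did not pass, with permutation adjusted p of 0.0775 and 0.119. Each rested on 1 guide with 0 counts in the bottom library and 190 or 125 in the top library, whose ratio depends on the pseudocount. With 3 counts in place of the 0 the means would be 1.21 and 1.04.

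A few genes of the nucleus and the nuclear envelope are also in H6. PNISR, on chromosome 6, had 595, 857, 462, 2314 and 1005 counts in the bottom library and 414, 675, 365, 2302 and 1200 in the top library at its first start. All 5 guides lay on the dim side, from -0.91 to -0.14. The mean was -0.58 ± 0.31 (SD, n = 5 guides) with a permutation adjusted p of 0.00245, and 11 of 15 other settings called it. These guides lie within 31 bases of each other, so that they overlap on the DNA. The second start of PNISR had 0.07 ± 0.24, with guides from -0.29 to 0.35.

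CNEP1R1 is the regulatory subunit of a nuclear envelope phosphatase that acts on lipin in lipid synthesis. It had 745, 899, 973 and 1167 counts in the bottom and 1310, 1604, 1993 and 2392 in the top library. The 4 guides lay between 0.42 and 0.64, and the mean was 0.54 ± 0.12 (SD, n = 4 guides) with an adjusted p of 0.0230 by the permutation test. The spread over its guides was smaller than for any other target that passed. RPRD1B, which binds the tail of RNA polymerase II, had 1799, 1162, 2637, 655 and 505 counts in the bottom and 2750, 1862, 4232, 1332 and 1201 in the top library. All 5 lay above 0, from 0.22 to 0.86, with a mean of 0.46 ± 0.27 and 0.0296 by that test. TTI1, whose start lies 290 bases away, had 0.18 ± 0.11 in H7 and did not pass.

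INTS5, a subunit of the Integrator complex, had 0.58 ± 0.86 and a permutation adjusted p of 0.0242. Its guides pointed both ways, from -0.63 with 1125 and 951 counts in the bottom and top libraries to 1.76 with 451 and 2005. ZMYM5, a zinc finger protein, had the highest mean in H6, 2.32 ± 3.97, and its value turned on 1 guide with 0 counts in the bottom and 806 in the top library. A guide missing from 1 library was taken as 0, and with only guides listed in both libraries ZMYM5 no longer passed. Taking 3 counts as what counting error allows for a 0, the guide with 806 counts would have at least a 205-fold higher share in the top library. That bound covers counting error only. With it at that bound the mean would be 2.00. Its ratio under a pseudocount of 1 depends on that pseudocount. The next guide had 200 and 993 counts and lay at 1.91, and the other 3 lay between -0.26 and 0.37. Without the farthest guide the mean was 0.58 and did not pass, while the permutation test on all 5, the guide admitted through the top library alone included, gave an adjusted p of 0.00283.

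SYNDIG1 and PRRT1 encode related proteins that associate with AMPA-type glutamate receptors. SYNDIG1 had -0.59 ± 0.65 over 4 guides and a permutation adjusted p of 0.0208, with its deepest guide, at 2560 and 3570 counts in the bottom and top libraries, at 0.09. PRRT1 passed at its second start, with 403, 1572, 620 and 1571 counts in the bottom and 273, 1087, 702 and 2079 in the top library. Of those guides 2 lay at -0.95 and -0.92 and the others at -0.21 and 0.01, for a mean of -0.52 ± 0.49 and a permutation adjusted p of 0.0334. The first start had 0.04 ± 0.29. The guide at -0.95 is also listed for another target, and with shared guides removed PRRT1 no longer passed.

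MDM1, a protein that binds microtubules and centrioles, had 422, 638, 917, 2737 and 3435 counts in the bottom and 317, 544, 892, 2784 and 4246 in the top library. All 5 lay on the dim side, and the deepest was nearest to 0, at -0.09. The mean was -0.46 ± 0.27 with a permutation adjusted p of 0.0213. SPRED1, an inhibitor of Ras signalling, had -0.44 ± 0.52 with 4 of 5 guides on the dim side and 0.0376 by that test. Its guides at -1.04, -0.80 and -0.43 had 274 or fewer counts in the bottom library, and those at -0.23 and 0.28 had 1596 and 940.

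Of the 32 targets that passed, 19 had all guides on 1 side of 0, or 59.4%, against 8.25% of the others. These were 13 of the bright and 6 of the dim targets. Since a target passes on the mean of these same guides, this contrast is not a separate check. The median mean was 0.54 on the bright side and -0.48 on the dim side. Targets that passed had lower guide abundance. On the log2 scale of summed counts against the non-targeting median, their median was -0.61, against -0.14 for the other targets. Of 26 targets with an abundance under -2, 2 passed on the bright and 1 on the dim side, and their means had an SD of 0.402. Of 272 targets between -2 and -1, 6 passed on the bright and 3 on the dim side. Between -0.5 and 0.5 there were 1558 targets, of which 9 and 5 passed, and of 277 with an abundance over 0.5, 0 passed. The SD over guides had a median of 0.496 for targets that passed, against 0.237 for the others. It too describes the values that made them pass. Whether guide abundance contributed to the means was not tested.

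The extent of a target's guides on the DNA was much the same in both sets, with a median of 418.5 bases for targets that passed and 404 for the others. The 143 genes with guides at 2 separate starts (P1 and P2) gave a further comparison within H6. The means of the starts lay on the same side for 73 genes, and Pearson's r between them across genes was 0.02. Of these genes' second starts 1 passed, that of PRRT1. In none of SLC12A9, PNISR, ST3GAL2 and PRRT1 did both starts pass. The difference between starts was not tested.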

How the data were processed

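The authors deposited whole-number counts per guide with no normalization, 1 table per library; the submitters' processing notes name Bowtie, while other settings and the build of guide positions are stated in none of the sources used here. A guide missing from 1 table of a pair was taken as 0. Sublibrary H4 was not used here. Samples were grouped by their titles. A pseudocount of 1 was added, counts were divided by library totals, and the log2 ratio of top over bottom had the sublibrary's non-targeting median subtracted. A guide needed 50 counts in either library and a target 3 guides. Each target's mean was set against 100000 draws from its own and the non-targeting guides (two-sided permutation test, smallest p 1e-05), with Benjamini-Hochberg adjustment over 18116 targets. edgeR 4.0.16 (R 4.3.3), with guides as blocks, and 14 more settings were alternatives. Code ran under Python 3.11.15 with numpy 2.4.6 and was tested on simulated data. Because PCR copies carried no molecular identifiers, the spread expected from counting covers counting error only.

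Members and gene lists were chosen with earlier results of these data known. Named were all targets that passed, the 3 highest and 3 lowest with all guides on 1 side that did not, the 2 members of each list farthest from 0, the other starts of these genes and the 5 genes of lowest abundance; not all are described. A gene with several starts stood in the lists at its first. RefSeq tables gave symbols (2411 of 2418 matched), chromosomes and promoters.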

Additional observations from a re-analysis of the deposited data

How the results depend on the processing

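Against 21 bright and 11 dim targets that passed, the counts under other settings were as follows, bright first. With no filter on guide counts 2 and 0 passed, and with olfactory receptor guides as the reference, adjusted over H6 alone, 3 and 0. Without the farthest guide 2 and 1 passed, against draws that were not trimmed in that way. With the 3 farthest guides 12 and 7 passed, and by the median over guides 11 and 10. The rank sum gave 14 and 5, edgeR with guides as blocks 3 and 1, adjustment within H6 alone 3 and 2, and a threshold of 0.01 gave 6 and 2. Both counts were within 1.5 times of 21 and 11 with a pseudocount of 10 or 0.5, a minimum of 200 counts, guides listed in both libraries, shared guides removed and all guides as the centre. Similar counts did not always mean the same targets. With a minimum of 200 counts 18 and 11 passed, of which 15 and 7 were among the 21 and 11. By the median over guides 10 and 8 were shared in this way, and by the rank sum 10 and 5. No value of a named target that passed changed its direction under the settings run. The non-targeting guides had an SD of 0.392 with no filter and of 0.264 with 200 counts. With 2 settings added after the data were seen, 100 counts over both libraries gave 20 and 11, and 50 counts in each gave 14 and 11. Of the 32 targets 5 had too few guides for edgeR. No paired analysis was possible because each group held 1 library. Depth limits the shallow guides most, and without a second sort the spread between sorts is unknown.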

Other observations

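Among genes that did not pass, 3 others with all guides on the bright side were chosen by their values. PCNXL3 had 0.48 ± 0.70 (SD, n = 5 guides), with 4 guides between 0.03 and 0.38 and 1 at 1.71 that held 477 and 2047 counts in the bottom and top libraries. CLSTN3, a synaptic adhesion protein, had 0.50 ± 0.89 over 4 guides at its first start and -0.01 ± 0.12 over 5 at its second. At the first start 1 guide with 226 and 1061 counts lay at 1.83, the others between 0.03 and 0.11. Without the farthest guide that mean was 0.06. LRRN4CL had 0.44 ± 0.43 over 3 guides. On the dim side TMEM179B had -0.54 ± 1.01, with 1 guide at -2.34 that held 57 and 14 counts and the other 4 between -0.25 and -0.01. SLC2A7, a hexose carrier, had -0.58 ± 0.96 over 4 guides. Of these, 1 with 141 and 45 counts lay at -2.02 and the others between -0.12 and -0.08. The olfactory receptor OR7E24 had -0.44 ± 0.53 over 4. For all of these genes the adjusted p by the permutation test lay between 0.0614 and 0.184.

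Of the 5 genes whose guides had the lowest abundance, SDK2, at -2.88, passed as described above, and 4 did not. BAI2, an adhesion receptor coupled to G proteins, had an abundance of -3.69 on the log2 scale of summed counts and a mean ratio of -0.21 ± 0.68. FAM98B, a subunit of the tRNA ligase complex, had an abundance of -3.21 and a mean of 0.00 ± 0.04 over 3 guides. LRRN2 had -2.86 and -0.18 ± 0.64, and GRAMD3 had -2.80 and 0.05 ± 0.18, over 4 guides each. Abundance was averaged over all listed guides, and each of the 5 genes had 1 that did not enter the ratio. For LRRN2 that guide lay at an abundance of -10.43 and the others between -2.61 and -0.04. For GRAMD3 it lay at -9.85 and the others between -4.13 and 1.24.

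The heme carrier SLC48A1 had positive means at both of its starts, 0.23 ± 0.29 at the first and 0.30 ± 0.29 at the second, with 4 of 5 guides above 0 at each. The ferrireductase STEAP4 had 0.30 ± 0.27 with all 5 guides above 0. Their permutation adjusted p lay between 0.235 and 0.445, and neither passed.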
